A study of Homo sapiens with 25 samples.

Results

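Keratins and epithelial adhesion genes were followed here as a set of 10 named genes, out of 58302 genes counted, in a culture of human skin fibroblast origin. The set holds the keratins KRT7, KRT8, KRT10, KRT18, KRT19, KRT34, KRT80 and KRT81 and the adhesion genes EPCAM and CDH1. It was chosen by the counts of the drug libraries, because KRT81 and KRT19 had been seen at higher levels under inhibition. The values of all members in the drug libraries are therefore given as a description, without a test. All 10 were found in the count files by Ensembl identifier.

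The study used hiF-T, a fibroblast-like line derived from BJ skin fibroblasts that carries an inducible human telomerase gene and is labelled wild type. Poly(A) RNA-seq was made from 25 libraries. In the first experiment, cells were sorted into 4 gates by accumulation of a dye (low, midlow, midhigh and high) or taken ungated, with 4 replicate numbers in each of these 5 groups and no drug. The series describes this sort as one by proliferation status, and the labels do not say which end of the dye scale divided faster. In the second experiment, 1 library came from cells given DMSO, 1 from cells without drug, 1 from cells under DOT1L inhibition and 2 from cells under LSD1 inhibition. DOT1L is a methyltransferase and LSD1 a demethylase acting on histone H3. The labels name no compound, dose or exposure time. No cells of epithelial origin were included, so every level below is that of a fibroblast line.

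Keratins are the intermediate filament proteins of epithelia, and they assemble as pairs of a type I and a type II chain. KRT8 (type II) and KRT18 (type I) form the filament of simple epithelia, where KRT7 and KRT19 are also found. KRT10 belongs to the differentiating epidermis, KRT80 to a range of epithelia, and KRT34 (type I) and KRT81 (type II) to the hair shaft. EPCAM and CDH1, which encodes E-cadherin, hold epithelial cells together. Fibroblasts rely instead on vimentin.

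In GENCODE release 29 (GRCh38) the type II genes lay on chromosome 12, with KRT80 at chr12:52168996-52192000, KRT7 at chr12:52232520-52252186, KRT81 at chr12:52285913-52291534 and KRT8 at chr12:52897187-52949954. KRT18, a type I gene, lay beside KRT8 at chr12:52948871-52952901. The other type I genes lay on chromosome 17, with KRT10 at chr17:40818117-40822595, KRT34 at chr17:41377650-41382403 and KRT19 at chr17:41523617-41528308. EPCAM was at chr2:47345158-47387601 and CDH1 at chr16:68737225-68835548.

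The promoters of KRT34, the member that varied most, and of KRT10, the member that varied least, are shown as the 250 bases before the RefSeq start site (GRCh38.p14), 5′ to 3′ on the minus strand. RefSeq promoters of 3 of the 10 members were matched, and that of KRT8 is printed as the third. Capitals mark a TATA box, searched as TATAAA on both strands.
KRT34, chr17:41382307-41382556: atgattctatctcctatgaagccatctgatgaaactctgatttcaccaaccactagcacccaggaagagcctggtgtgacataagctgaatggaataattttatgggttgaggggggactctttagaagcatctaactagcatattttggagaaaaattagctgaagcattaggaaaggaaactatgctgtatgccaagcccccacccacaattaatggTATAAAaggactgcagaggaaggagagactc
KRT10, chr17:40822615-40822864: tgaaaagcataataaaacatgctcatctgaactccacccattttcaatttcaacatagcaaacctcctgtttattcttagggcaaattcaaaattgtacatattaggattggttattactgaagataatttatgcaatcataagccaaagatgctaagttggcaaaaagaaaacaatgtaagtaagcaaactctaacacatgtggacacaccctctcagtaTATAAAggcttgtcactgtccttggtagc
KRT8, chr12:52926470-52926719: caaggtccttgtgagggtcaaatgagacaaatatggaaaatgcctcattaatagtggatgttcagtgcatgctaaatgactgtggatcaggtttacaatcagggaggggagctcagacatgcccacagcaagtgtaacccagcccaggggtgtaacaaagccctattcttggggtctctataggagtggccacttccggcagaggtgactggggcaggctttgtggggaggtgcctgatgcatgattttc

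The TATA box began 31 bases before the start in KRT34 and 29 bases before it in KRT10, and these letters were not in the KRT8 window. Of 35116 RefSeq promoters of the same length, 10.72% held the motif. None of the 3 windows held the E-box CAGGTG bound by SNAI and ZEB factors (17.49% of promoters), the GC box GGGCGG (42.64%) or the AP-1 site TGANTCA (6.57%), all searched on both strands. GC content was 42.4% for KRT34, 34.8% for KRT10 and 50.4% for KRT8, against a mean of 57.2% over all promoters. GENCODE places the start of KRT34 inside the window printed above. The KRT8 window lies inside the GENCODE span of that gene, whose outermost start on the minus strand is at chr12:52949954. The motifs and GC content given for KRT8 therefore describe the RefSeq start used here, and not the outermost GENCODE start.

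Library depth ran from 15015039 to 20030093 counts in genes, so that 3 counts, the limit that a count of 0 allows, corresponded to 0.150 to 0.200 counts scaled to library size (CPM, counts for each 1000000 in genes). Such limits cover counting error only. CPM values below are scaled by the trimmed mean of M values (TMM). All 13 fibroblast markers were detected, with a summed level of 16470 to 29680 CPM in the libraries. Of 12 keratinocyte markers, KRT5, KRT14, KRT1 and IVL had at most 3 counts in any library. The sum over that list was 5.49 to 14.5 CPM in the sort groups and 12.6 to 19.2 CPM in the drug libraries.

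The simple epithelial pair was the most abundant part of the set together with KRT10. Levels are compared between genes per kb of the longest coding transcript, as the mean over the 20 sort libraries. KRT18 stood at 103 ± 37.7 CPM per kb (SD, n = 20), and its lowest library, at 61.5, was above every library of every other member. KRT10 followed at 21.0 ± 1.82, KRT8 at 14.6 ± 2.93 and KRT34 at 8.79 ± 7.38 CPM per kb. KRT80 stood at 3.03 ± 0.888, KRT81 at 2.47 ± 0.908 and KRT19 at 1.17 ± 0.594 CPM per kb. EPCAM, at 0.310 ± 0.142, and KRT7, at 0.282 ± 0.159, rested on 3 to 18 counts per library. From KRT10 down to KRT7, the ranges of neighbours in this order overlapped. With merged exon length in place of the longest transcript, KRT8 fell to 5.16 CPM per kb and changed places with KRT34, while the other ranks stayed. CDH1 was at the limit of counting, with 15 counts over the 20 sort libraries and 0 in 8 of them.

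**Figure D1:**
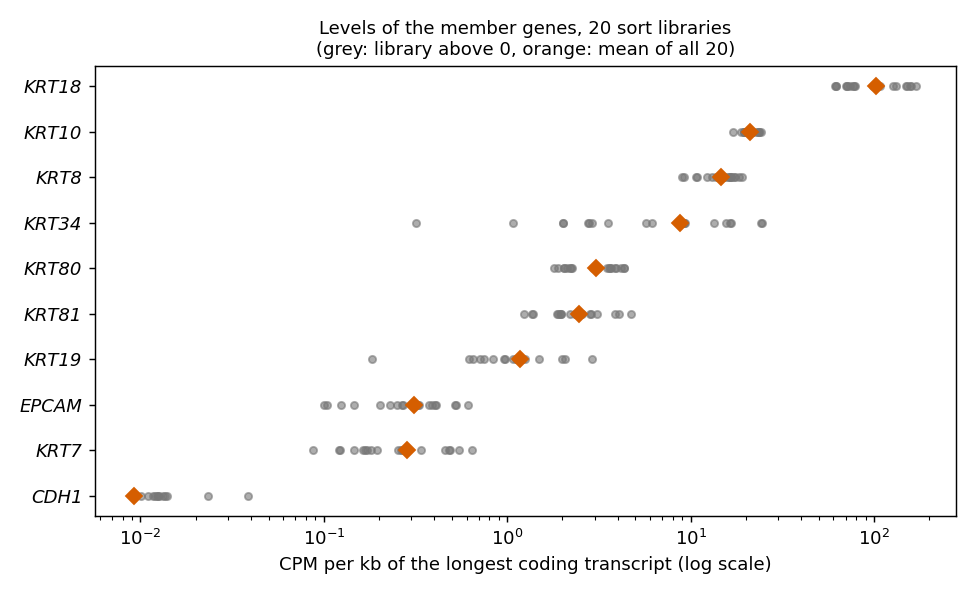
Level of each member gene in the sort libraries, in CPM per kb of the longest coding transcript on a log axis. Grey points are single libraries above 0 and orange diamonds the mean of all 20; KRT18 lies apart at the top and CDH1, at or under 3 counts, at the bottom, and KRT34 has the widest spread of the members above 1 CPM per kb.

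Other keratins were nearly silent. Of the 43 other keratin genes counted, 39 had a mean below 1 count per library, and KRT15 (63.9 counts) and KRT17 (8.52 counts), both of basal epidermis and hair follicle, were the only ones that passed the filter on low counts. Near copies limit some members. In KRT81, 44.57% of the 50-base words of the transcript also occur in other genes, chiefly in the hair keratin KRT86, which itself had 0 to 6 counts per library. The share was 28.9% in KRT18, spread over 43 genes, its pseudogenes among them, and 11.4% in KRT34, shared with KRT33B, KRT33A and KRT31. In the other members it was at most 2.57%. KRT8 and KRT18 overlap on opposite strands by 525 exon bases, and the strand setting of the counting is not given in the sources used here. Pseudogenes of KRT8 were counted with 11.7% to 36.1% of the KRT8 total.

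KRT34 was the member that followed the sort. In the low gate it stood at 3.53, 0.559, 6.20 and 10.8 CPM for replicate numbers 1 to 4, and in the midlow gate at 5.06, 1.88, 14.8 and 16.2 CPM. In the midhigh gate it was at 16.4, 3.51, 42.7 and 28.9 CPM, and in the high gate at 16.03, 4.89, 42.1 and 28.6 CPM. The groups overlapped because replicate number 2 was low in every gate, yet within each number KRT34 was higher in the high than in the low gate, by 4.54, 8.76, 6.80 and 2.66-fold. It was also higher in midlow than low and in midhigh than midlow in 4 of 4 numbers, while high and midhigh had nearly equal means, with a ratio of 1.00. Ungated cells, at 9.95, 4.81, 27.3 and 23.5 CPM, lay above the low gate in every number. They lay below the high gate in numbers 1, 3 and 4, and were nearly equal to it in number 2, at 90 against 91 counts.

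Over the 4 gates, KRT34 rose by 0.77 ± 0.26 log2 units per gate step (SE, 16 libraries; edgeR quasi-likelihood test, adjusted p = 0.0373). Of all 14419 genes tested, 26.2% passed that test, and KRT34 was the only one of the 9 members tested; CDH1 did not reach the count needed. The call was lost when a single library was left out, namely high 3 (adjusted p = 0.111), high 4 (0.0542), low 1 (0.0765), low 2 (0.0707), low 3 (0.0635) or midlow 1 (0.0534), with slopes of 0.65 to 0.78. Same-numbered libraries deviated together across the whole transcriptome, so the fit with the replicate number as a block is given beside it. With that block the slope was 0.75 ± 0.08 (edgeR, adjusted p = 1.12e-06), and it passed without any 1 of the 16 libraries. With the block 43.8% of genes passed, and among the members KRT34, KRT80 and KRT81. DESeq2, without a block, gave KRT34 a slope of 0.781 ± 0.275 (adjusted p = 0.0272), and was not run with libraries left out.

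Between the high and low gates KRT34 differed by 2.15 ± 0.83 log2 units, which did not pass (edgeR, adjusted p = 0.081) and passed without high 2 (adjusted p = 0.0419). With the replicate block the difference was 2.16 ± 0.20 (edgeR, adjusted p = 1.31e-07). No member of the 9 tested was called in this comparison without the block, against 17.7% of all genes, and 2 were with it, against 37.2%. At an unadjusted p under 0.05 in edgeR there were 2 of the 9 members, KRT34 and KRT80, where 4704 of 14592 genes were so. DESeq2 called 0 members. Midhigh exceeded midlow by 1.30 ± 0.79 (edgeR, adjusted p = 0.511), or by 1.28 ± 0.18 with the block (adjusted p = 0.000742). Low fell below ungated by 1.65 ± 0.83 (edgeR, adjusted p = 0.404), or by 1.71 ± 0.20 with the block (adjusted p = 5.65e-05). High and ungated differed by 0.49 ± 0.77 (edgeR, adjusted p = 0.863) and by 0.45 ± 0.17 with the block (adjusted p = 0.109); the latter passed without high 4 (adjusted p = 0.0436) or ungated 2 (adjusted p = 0.0427).

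For those last 3 comparisons edgeR called 0 members without the block and DESeq2 called 0, and 0 had an unadjusted p under 0.05. Of 14592 genes, 1891 had such a p for midhigh against midlow, 1898 for low against ungated and 1543 for high against ungated. In that order, genes called in edgeR made up 0.0%, 0.0754% and 0.00685%. With the block the counts were 1, 1 and 0 members, the called member being KRT34, against 10.8%, 10.8% and 7.59% of genes. In the test for any difference among the 5 sort groups, 0 of 9 members had an unadjusted p under 0.05 in edgeR. Of 14592 genes, 3030 did. After adjustment 0 members passed in edgeR, with 7.11% of all genes called, and 0 in DESeq2. With the block KRT34 (adjusted p = 3.17e-07) and KRT80 (adjusted p = 0.0426) passed, against 28.8%. Leaving out 1 library at a time, KRT34 kept that call in 20 of 20 fits and KRT80 in 8, with adjusted p up to 0.148. The p-values measure the spread between the libraries that the labels call biological replicates. In bulk RNA, fewer cells expressing a gene and less RNA per cell cannot be told apart.

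**Figure D2:**
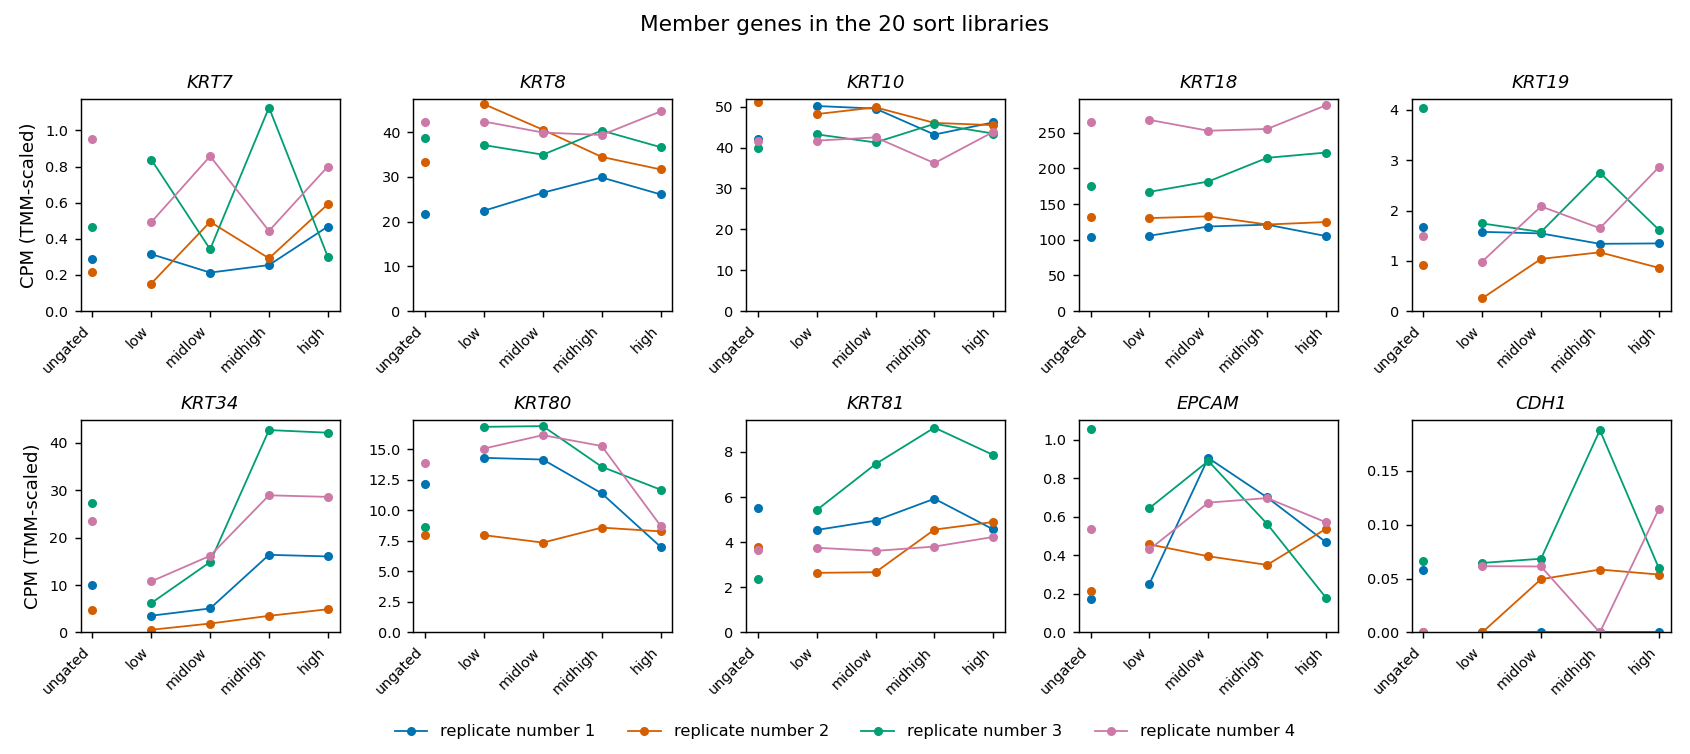
CPM of the 10 members in the sort libraries, by group, with each replicate number in its own colour and its 4 gates joined by a line. KRT34 climbs from low to midhigh in all 4 numbers and is nearly level from midhigh to high in numbers 1, 3 and 4, KRT80 has the lowest of its 4 gates at the high end in the same numbers, and KRT18 separates the numbers and not the gates.

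KRT80 and KRT81, both type II, moved in opposite directions along the gates in the fit with the replicate block. KRT80 stood at 14.3, 7.97, 16.9 and 15.1 CPM in the low gate and at 7.02, 8.28, 11.7 and 8.75 CPM in the high gate. It was lower in the high gate for numbers 1, 3 and 4 and at 1.04-fold for number 2, which was low throughout, and the groups overlapped. The slope was -0.19 ± 0.08 log2 units per gate step (edgeR, adjusted p = 0.11), and -0.18 ± 0.05 with the block (adjusted p = 0.00557). Without low 2 it passed without the block too (adjusted p = 0.0264). High against low gave -0.59 ± 0.27 (edgeR, adjusted p = 0.135), and -0.55 ± 0.16 with the block (adjusted p = 0.00987); the latter did not pass without high 1 (adjusted p = 0.0557). The step from midhigh to high was downward in 4 of 4 numbers, though nearly level in number 2, at 0.964-fold. This step was not tested.

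The hair keratin KRT81 stood at 4.54, 2.64, 5.42 and 3.75 CPM in the low gate and at 4.56, 4.89, 7.86 and 4.23 CPM in the high gate. The high value was above the low one in each number, by 1.00, 1.85, 1.45 and 1.13-fold, the smallest of these being near equality, and the groups overlapped. Its slope of 0.16 ± 0.10 per gate step did not pass (edgeR, adjusted p = 0.273), and with the block, at 0.16 ± 0.05, it did (adjusted p = 0.0172). That call was lost without high 2 (adjusted p = 0.0582), low 2 (0.0514) or low 3 (0.0804). High against low gave 0.41 ± 0.33 (edgeR, adjusted p = 0.421), and 0.42 ± 0.23 with the block (adjusted p = 0.17).

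**Figure D3:**
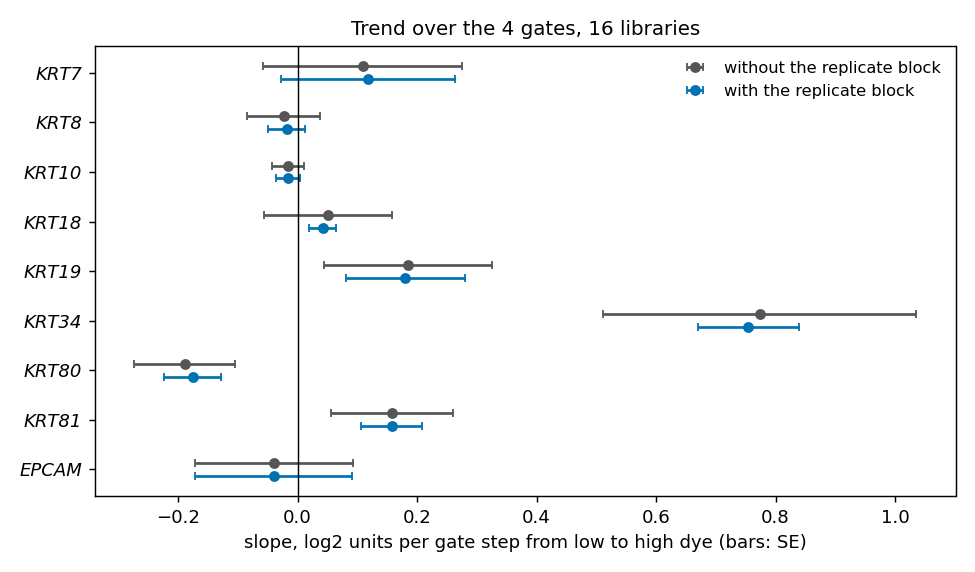
Slope over the 4 gates for the 9 members tested, in log2 units per gate step with SE bars, without the replicate block (grey) and with it (blue). KRT34 lies far to the right at 0.77 and 0.75, KRT80 lies below 0, and the blocked bars are narrower for KRT18 and KRT34 while the slopes barely move.

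The simple epithelial keratins showed no called difference in any sort comparison. KRT18 stood at 106, 130, 167 and 268 CPM in the low gate and at 105, 125, 222 and 289 CPM in the high gate, a difference of 0.15 ± 0.37 log2 units (edgeR, adjusted p = 0.819). These values order the replicate numbers and hardly the gates. KRT8 stood at 22.4, 46.3, 37.1 and 42.4 CPM in the low gate and at 26.1, 31.7, 36.7 and 44.6 CPM in the high gate (-0.09 ± 0.22, adjusted p = 0.83). KRT10 ranged only from 36.2 to 51.2 CPM over the 20 libraries (high against low -0.03 ± 0.09, edgeR, adjusted p = 0.875). KRT19 ranged from 0.254 to 4.03 CPM and gave 0.58 ± 0.51 between high and low (edgeR, adjusted p = 0.455). It was lower in the low gate than in ungated cells in 4 of 4 numbers, at -0.84 ± 0.50 (edgeR, adjusted p = 0.489). EPCAM gave 0.00 ± 0.50 and KRT7 gave 0.31 ± 0.58 between high and low, from 3 to 17 and 3 to 18 counts per library in the sort.

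Replicate number accounted for more of the variation than sort group in 9 of the 10 members, the exception being EPCAM. The same share over all genes is not given here, and same-numbered libraries deviated together across the whole transcriptome. The count is therefore not read as a trait of the members. In CDH1 the split rests on 0 to 3 counts per library. For KRT18 the replicate number took 95.8% of the sum of squares of log2 CPM over the 20 libraries and the sort group 0.8%, with means of 111, 128, 192 and 266 CPM for numbers 1 to 4. For KRT8 the shares were 79.7% and 2.0%. KRT34 had the largest share for the sort group, 32.2%, beside 64.6% for the number, and its means by number were 10.2, 3.13, 26.6 and 21.6 CPM. KRT80 had 25.7% for the group and 48.6% for the number, and KRT81 had 20.8% and 34.5%. In EPCAM, at 18.8% and 14.9%, most of the variation, 66.3%, lay in neither. The SD of log2 CPM was 1.57 for KRT34 and 0.13 for KRT10. The highest KRT34 library was 76.4 times its lowest, against 1.42 times for KRT10.

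**Figure D4:**
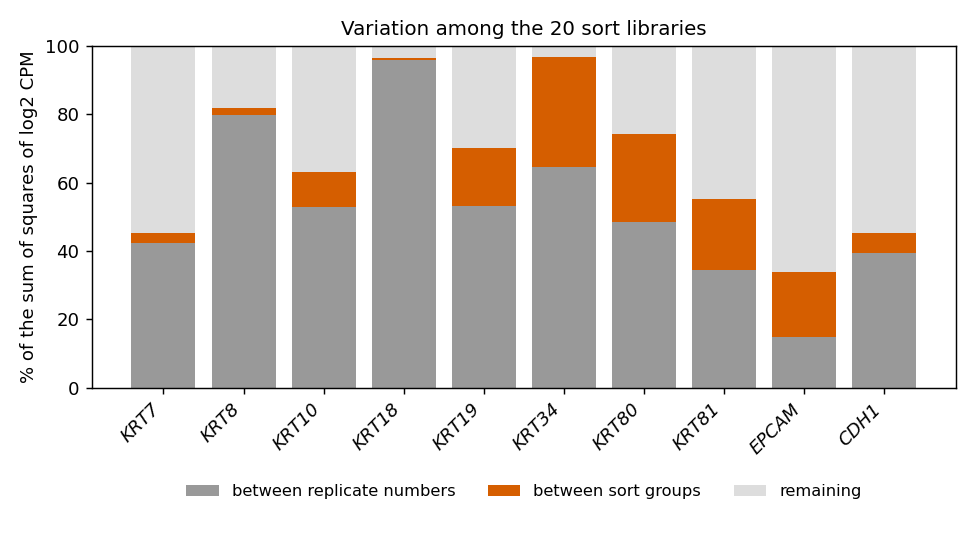
Share of the sum of squares of log2 CPM over the 20 sort libraries that lies between replicate numbers (dark grey), between sort groups (orange) and in neither (light grey), for each member. KRT18 is nearly all dark grey at 95.8%, and KRT34 has the tallest orange part at 32.2%.

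Genes with a pattern like that of a member were looked for by Pearson correlation of log2 CPM over the 20 sort libraries, among 10144 genes with a mean of at least 5 CPM. These values describe libraries that share replicate numbers and gates. KRT34 was most like MFGE8, a secreted glycoprotein (r = 0.97), PLOD2, a collagen lysyl hydroxylase (r = 0.97), and LOX, the collagen cross-linking lysyl oxidase (r = 0.96). After subtracting the mean of each replicate number the values were 0.95, 0.92 and 0.94. MFGE8 had a slope of 0.30 ± 0.10 per gate step (edgeR, adjusted p = 0.0376), and PLOD2 (0.12 ± 0.06, adjusted p = 0.119) and LOX (0.25 ± 0.12, adjusted p = 0.142) did not pass. With the replicate block all 3 passed, at 0.30 ± 0.03, 0.13 ± 0.02 and 0.27 ± 0.03 (edgeR, adjusted p = 1.23e-07, 8.23e-05 and 2.67e-06). KRT80 was most like SOAT1 (0.93), FMN2 (0.92) and CTSC (0.92), and KRT81 most like EFNB2 (0.91), MCAM (0.88) and SLC7A11 (0.85). For KRT18 the nearest were BMPER (0.96), DLG1 (0.96) and HERC4 (0.95), but within replicate numbers these were 0.29, 0.06 and 0.35. KRT8 was nearest to SEMA3F (0.90), CABLES1 (0.895) and MLPH (0.89), KRT10 to DCP1A (0.87), CZIB (0.80) and TYRO3 (0.80), and KRT19 to SKP1 (0.86), SQOR (0.84) and ADD1 (0.83). The partners KRT8 and KRT18 had r = 0.74 with each other, and 0.44 within replicate numbers.

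Related genes were read from lists of other keratins, other intermediate filaments, desmosomes, adherens junctions, tight junctions with EPCAM partners, epithelial regulators and repressors of epithelial genes. Of 144 genes on these lists 63 passed the filter on low counts. Over the 4 gates 6 of them rose and 12 fell (edgeR), where 26.2% of all genes were called. Under the block 19 rose and 24 fell, where 43.8% of all genes were called. KRT17 was the 1 other keratin that rose, by 1.11 ± 0.28 log2 units per step (adjusted p = 0.00711); it had 0, 0, 5 and 0 counts in the low gate and 18, 2, 30 and 10 in the high gate. Among 13 other intermediate filament genes SYNC (0.34 ± 0.05, adjusted p = 0.000209) and BFSP1 (0.33 ± 0.06, adjusted p = 0.000754) rose. The lamins LMNB1 (-0.31 ± 0.08, adjusted p = 0.0102) and LMNB2 (-0.26 ± 0.05, adjusted p = 0.00149) fell, as did VIM, which encodes vimentin. Among 15 adherens junction genes NECTIN4 rose by 1.52 ± 0.27 (adjusted p = 0.000901) and CDH13 by 0.34 ± 0.09, and CDH6, CTNNAL1, CDH4 and AFDN fell. In the desmosome list ITGA6 fell (1 of 12).

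Among 10 repressors of epithelial genes, SNAI1 (-0.21 ± 0.07, edgeR, adjusted p = 0.0251), FOXC2 (-0.16 ± 0.04, adjusted p = 0.0042) and TCF3 (-0.15 ± 0.04, adjusted p = 0.0108) fell over the gates and SNAI2 rose (0.15 ± 0.04, adjusted p = 0.00705). Median slopes were 0.20 for other intermediate filaments, 0.06 for desmosomes and 0.01 for adherens junctions. They were -0.05 for tight junctions with EPCAM partners and -0.12 for the repressors, against 0.00 for all genes. Over the 9 members tested the median was 0.05. Of the fibroblast markers, 5 of 13 rose over the gates and 0 fell, where 2012 of 14419 genes rose, and with the replicate block 9 rose and PDGFRA fell, where 3331 genes rose. Without the block LUM rose by 0.69 ± 0.16 and COL3A1 by 0.47 ± 0.14 (edgeR, adjusted p = 0.004 and 0.0206). The summed level of the 13 markers was 16470 to 19010 CPM in the low gate and 21520 to 29590 CPM in the high gate. Their part in the KRT34 result was not tested.

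In the drug libraries KRT19, EPCAM, KRT80, KRT81 and KRT7 stood higher under both inhibitors. Both inhibitors are set against the DMSO library, and LSD1 inhibition also against the no-drug library, so the comparisons share a control. KRT19 was at 3.07 CPM in DMSO and 8.13 CPM without drug, at 12.2 CPM under DOT1L inhibition and at 19.1 and 34.9 CPM under LSD1 inhibition. The 3 inhibited libraries lay above both controls. The library without drug was itself above the sort maximum of 4.03 CPM, and the controls differed from each other by 2.65-fold. The log2 difference was 2.27 for LSD1 inhibition, from the edgeR fit, and 1.95 for DOT1L inhibition, from log2 CPM with a prior count of 2, and later values are on the same scales. The LSD1 value was 3.15 without the no-drug library and ran from 1.72 to 2.64 without any other single library, and the DOT1L value was 1.26 against the mean of DMSO and no drug. EPCAM had 8 and 10 counts in the controls, 35 under DOT1L inhibition and 46 and 45 under LSD1 inhibition, or 0.492, 0.611, 1.99, 2.93 and 2.79 CPM. Its log2 differences were 2.36 for LSD1 and 1.78 for DOT1L inhibition, and all 3 inhibited libraries lay above the sort maximum of 1.06 CPM.

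KRT81, the hair keratin, stood at 2.40 CPM in DMSO, 1.22 CPM without drug, 13.1 CPM under DOT1L inhibition and 5.61 and 2.72 CPM under LSD1 inhibition. The DOT1L library was highest, with 230 counts, while the second LSD1 library was close to DMSO, at 44 against 39 counts. The sort libraries ran from 2.38 to 9.08 CPM. The library without drug lay below that range and DMSO at its lower end. Both LSD1 libraries lay within it, and only the DOT1L library lay above it. The log2 differences were 2.39 for DOT1L inhibition and 1.20 for LSD1 inhibition. The latter was 0.60 without the first LSD1 library and ran from 0.80 to 1.75 without any other single library. KRT80 stood at 7.75 and 10.9 CPM in the controls, 19.8 CPM under DOT1L inhibition and 17.6 and 20.6 CPM under LSD1 inhibition (log2 differences 1.34 and 1.04). KRT7 had 4 and 7 counts in the controls, 35 under DOT1L inhibition and 13 and 12 under LSD1 inhibition, with log2 differences of 2.52 and 1.20.

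The more abundant members differed less. KRT8 was at 37.2 and 47.0 CPM in the controls, 51.2 CPM under DOT1L inhibition and 49.6 and 66.3 CPM under LSD1 inhibition (log2 differences 0.46 and 0.46). Its partner KRT18 was at 182 and 225 CPM in the controls, 189 CPM under DOT1L inhibition and 254 and 286 CPM under LSD1 inhibition (0.05 and 0.41). KRT10 (-0.01 for DOT1L and -0.08 for LSD1 inhibition) and KRT34 (0.18 and -0.05) had LSD1 values that overlapped the controls. KRT34 stood at 24.2 and 38.4 CPM in the controls, 27.4 CPM under DOT1L inhibition and 26.3 and 33.9 CPM under LSD1 inhibition, all within the sort range. CDH1 had 2 and 4 counts in the controls, 1 under DOT1L inhibition and 0 and 1 under LSD1 inhibition.

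At least 1.5-fold higher values were found for 5 of the 9 members that passed the filter under LSD1 inhibition, where 5.54% of 14002 genes were so, and for 5 under DOT1L inhibition, where 10% of 14990 genes were so. In each comparison these were KRT7, KRT19, KRT80, KRT81 and EPCAM. Those values entered the choice of the members. EPCAM, with 8 and 10 counts in DMSO and without drug, and KRT7, with 4 and 7, passed the filter only through the inhibited libraries. The filter thus drew on the same values, and nothing is read from the shares. KRT8, at 1.38-fold in both comparisons, was just outside the 1.5-fold limit. DOT1L inhibition had 1 library and no replicate check.

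**Figure D5:**
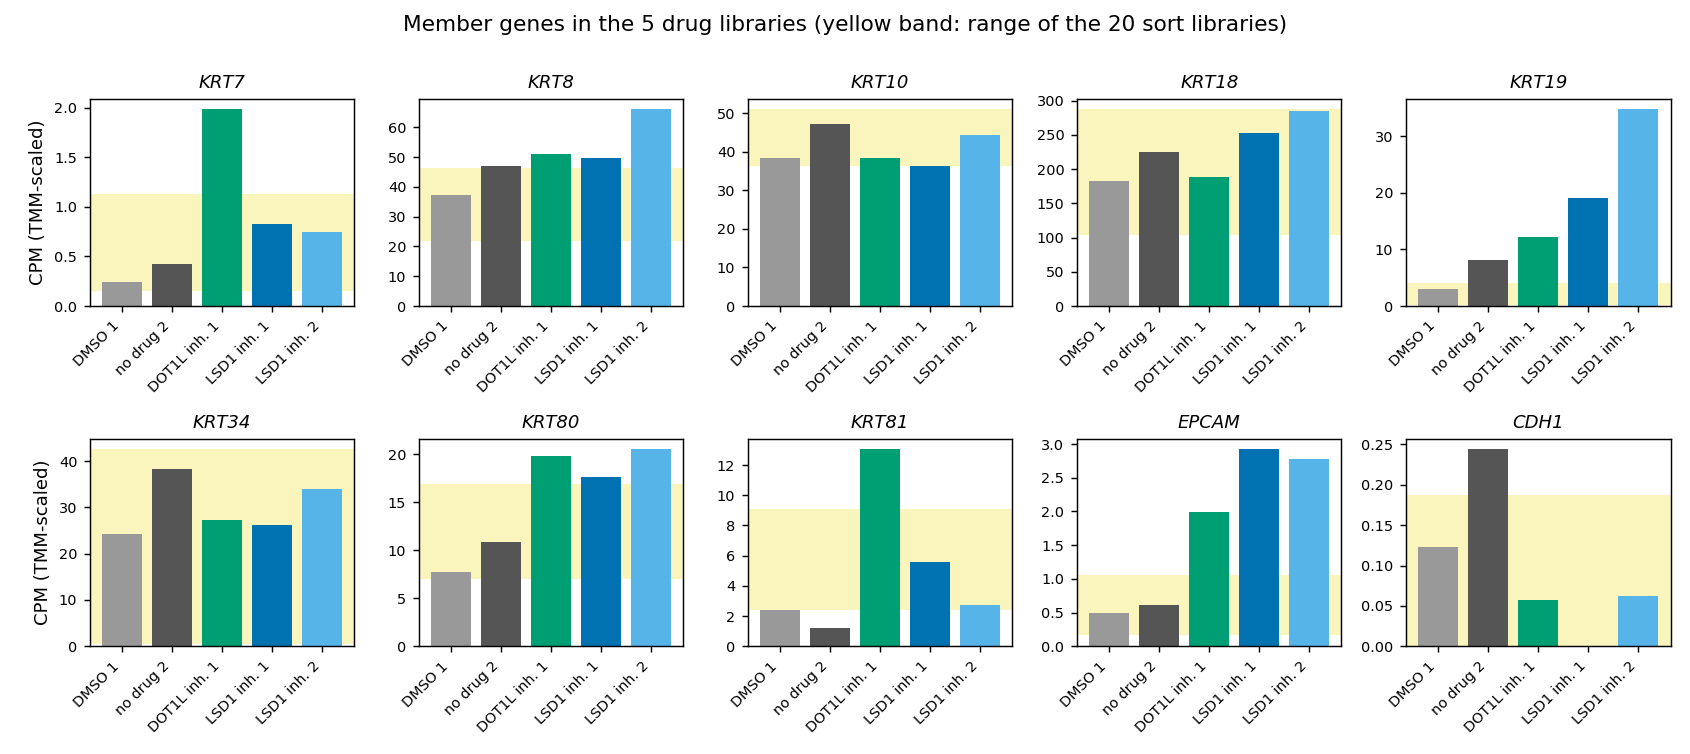
CPM of the 10 members in the 5 drug libraries as bars from 0, with a yellow band for the range of the sort libraries. For KRT8, KRT19, KRT80 and EPCAM the 3 inhibited libraries stand above the band, as does the library without drug for KRT8 and KRT19, for KRT81 and KRT7 only the DOT1L library does, and KRT34 and KRT10 stay within their bands.

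Of the related genes, 67 of 144 could be tested under LSD1 inhibition, and edgeR called 0 of them, against 0.114% of all genes called. At an unadjusted p under 0.05 in edgeR there were 16. DESeq2 called 2, CLDN1, a tight junction strand protein, and SYNM, an intermediate filament protein. The shares over all genes for these last 2 counts are not given here, so nothing is read from them. CLDN1 stood at 14.4 and 25.9 CPM in the controls and 46.9 and 64.3 CPM under LSD1 inhibition (edgeR 1.46 ± 0.29, adjusted p = 0.186; DESeq2 1.45 ± 0.26, adjusted p = 1.64e-05). The list of tight junction genes and EPCAM partners had a median log2 difference of 0.78 over 11 genes tested, against 0.00 for all genes. The median was 0.75 for 2 other keratins, 0.30 for other intermediate filaments and 0.07 for desmosomes. It was -0.05 for adherens junctions, -0.06 for epithelial regulators and 0.00 for the repressors. From it, the receptor CXADR had 5 and 6 counts in the controls and 39 and 23 under LSD1 inhibition, and occludin, OCLN, had 1 and 5 against 15 and 17; these, with CLDN1 and SYNM, were picked after their values were seen. CLDN7, a partner of EPCAM, had 6 and 3 counts in the controls and 7 and 6 under LSD1 inhibition.

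Under DOT1L inhibition, genes at least 1.5-fold above DMSO were 7 of 13 other intermediate filaments and 6 of 13 desmosome genes and keratin linkers. They were 3 of 12 tight junction genes and EPCAM partners, 0 of 15 adherens junction genes and 0 of 2 other keratins. Of all genes, 10% were so. Genes on the lists were counted only with at least 1 CPM in 1 of the 2 libraries, and the 10% had no such limit. The adherens junction genes CDH4 (-0.72) and CDH6 (-0.66) were at least 1.5-fold lower. The neuronal filament genes NEFL (log2 ratio 2.61) and INA (1.78) and the progenitor filament NES (2.49) were the highest of the filament list. ITGB4, the hemidesmosome integrin chain (1.97), and the plakophilin PKP2 (1.37) led the desmosome list. The ITGB4 ratio rests on 3 counts in DMSO and 19 under DOT1L inhibition. ITGB4 met the limit of 1 CPM only in the inhibited library, at 1.08 CPM. SPINT2 (1.77) and CD9 (1.11) led the list of tight junction genes and EPCAM partners. PRRX1, on the repressor list, was lower (-1.11) and SNAI1 higher (0.67). Of the fibroblast markers, 7 of 13 were at least 1.5-fold higher in this library. The summed level of the 12 keratinocyte markers was 12.6 CPM in DMSO, 15.3 CPM without drug, 17.3 CPM under DOT1L inhibition and 17.2 to 19.2 CPM under LSD1 inhibition. Among them PKP1 was 0.84 log2 units higher under DOT1L inhibition than in DMSO, and KRT5, KRT14, KRT1 and IVL were at or under 3 counts in every library. Their part in the member values was not tested.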

How the data were processed

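Raw read counts per gene, as deposited by the authors for each of the 25 libraries, were used without change. Reads were aligned with STAR and counted with HTSeq on GRCh38 (hg38), per the submitters' processing notes; tool versions, annotation release and strand setting are not given in the sources used here. Summary rows of the counter that name no gene were left out: reads in no feature came to 4.33% to 7.72% and ambiguous reads to 7.14% to 7.63%, and the rows for reads with several alignments were 0 in all files. Symbols and coordinates came from GENCODE release 29. A series-wide table was not used.

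All genes were fitted together with edgeR 4.0.16 in R 4.3.3 (TMM, filterByExpr with a minimum count of 10 and total of 15, quasi-likelihood F test, Benjamini-Hochberg adjustment over all genes tested, threshold 0.05). The sort fit held the 20 sort libraries, the trend fit the 16 gated ones with the gate as a number, and the LSD1 fit 2 inhibited libraries against DMSO and no drug. SEs are the log2 difference divided by the root of F. DOT1L inhibition, with 1 library, was a ratio to DMSO on log2 CPM with a prior count of 2. DESeq2 1.42.0 was an alternative. The pipeline was tested on simulated data. The main fits had no replicate block. Deviations from group means correlated at 0.146 to 0.618 in all 40 pairs of sort libraries with the same replicate number and at -0.474 to 0.288 in 120 other pairs, so the numbers were taken to pair the sort libraries. No pair of libraries in a group was alike to within sampling noise, with chi-square over degrees of freedom at 7.4 or more.

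The members and gene lists were chosen with earlier results of these data known. Named genes are the members, up to 4 genes per list and comparison with the largest change past the threshold, and the 3 genes most alike for each member with a mean of at least 1 CPM.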

Additional observations from a re-analysis of the deposited data

How the results depend on the processing

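Of 661 recomputed values for 56 results, 580 kept their direction and side of the threshold or moved by less than the replicate spread. With the replicate block the number of members called was 2 for any difference among the sort groups, 3 for the trend, 2 for high against low dye, 1 for midhigh against midlow, 1 for low against ungated and 0 for high against ungated; it changed no other call of a member. Without the filter on low counts, 1 member was called for any difference and 1 for high against low, where KRT34 had adjusted p = 0.00166 in edgeR; the cause was not tested. Leaving out 1 library at a time gave 0 to 1 members called for the trend and 0 to 1 for high against low. With the block kept, an alternative chosen after seeing the data, it gave 1 to 2 for any difference, 2 to 3 for the trend, 1 to 2 for high against low and 0 to 1 for high against ungated, where 1 member passed without high 4 or ungated 2.

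Directions that turned belonged to differences far from the threshold. Without single libraries the trend ran from -0.072 to 0.013 for KRT8, -0.031 to 0.14 for KRT18 and -0.11 to 0.043 for EPCAM. High against low ran from -0.27 to 0.043 for KRT8, -0.071 to 0.016 for KRT10, -0.15 to 0.47 for KRT18, -0.0028 to 0.78 for KRT7 and -0.19 to 0.24 for EPCAM, which was 0.010 with the replicate block. In the drug libraries the count of members at least 1.5-fold higher was 5 to 6 for LSD1 and 5 for DOT1L inhibition. In LSD1 inhibition the 2 replicate numbers share only a number, since their controls differ; a replicate block there raised the related genes called from 0 to 26 (18 higher, 8 lower) and all genes called from 16 to 2242. Depth limits EPCAM, KRT7 and CDH1 most, and for DOT1L inhibition no spread could be measured.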

Other observations

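NECTIN4, the adherens junction gene with the largest slope over the gates, had 4, 1, 2 and 3 counts in the low gate and 46, 21, 89 and 6 counts in the high gate for replicate numbers 1 to 4. In the drug libraries it had 11 counts in DMSO, 21 without drug, 13 under DOT1L inhibition and 19 and 27 under LSD1 inhibition. KRT17 followed KRT34 over the 20 sort libraries with r = 0.76, and 0.85 after subtracting the mean of each replicate number; both are type I keratins, and the points share libraries. KRT15 stood at 5.04 CPM in DMSO, 7.34 CPM without drug, 7.05 CPM under DOT1L inhibition and 8.47 and 10.7 CPM under LSD1 inhibition, against 1.38 to 5.49 CPM in the sort libraries.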
